A study of Mus musculus with 24 samples.

Results

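The genes described here lie at the distal end of a stretch of wild-derived chromosome 17 (Chr 17) that was bred into a laboratory mouse strain. They are the genes of the deposited table whose first transcript starts at base 37300000 or later and before base 45730000 of Chr 17, the latter being the distal end of the donor segment. *Mut*, *Rcan2*, *Cyp39a1*, *Pla2g7* and *Hsp90ab1* were left out by the rule, as were genes named *Zfp*. Of the 25 genes in this window 20 remained, out of 13998 in the table. The rule used position and gene names, and no expression value entered it, but 2 of the 5 genes left out by name were themselves called by the test used below, so counts over the 20 do not describe the whole window.

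Hypothalamus RNA came from 24 male F2 mice, 12 *cast/cast* and 12 *b6/b6*, with 1 library per mouse. The *cast/cast* mice were homozygous for CAST/EiJ (CAST) alleles over the Chr 17 segment, and the *b6/b6* mice for C57BL/6J (B6) alleles there. All were adult, non-recombinant over the segment and B6 over the rest of the genome, and came from intercrosses of progeny of 1 male of the B6.CAST-17.1 congenic line. Each genotype was sampled from a tail of the distribution of carbohydrate intake, high for *cast/cast* and low for *b6/b6* mice, so genotype and intake cannot be told apart in these mice. All had met the choice of carbohydrate/protein and fat/protein diets, had returned to chow, were given the choice again for about 2 days and were fasted before tissue collection. The study sought genes in the segment whose hypothalamic expression differed between the genotypes.

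A congenic segment holds many genes side by side, and every sequence difference between the donor and the recipient strain within it is inherited as 1 block. A variant near a gene can change how much RNA is made from that gene copy (*cis* regulation), or alter the RNA so that a short-tag assay counts it differently. A difference between *cast/cast* and *b6/b6* mice therefore points to no single gene in the block, and in these mice the groups also differ in intake.

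Expression was measured by SAGE-Seq, in which the enzyme site CATG nearest the 3′ end of each transcript is cut and a tag of 27 bases from that site is sequenced. A gene is thus counted by its tag, and the tags predicted for the genes with the clearest differences are shown for that reason. The sources used here do not say which CATG sites were counted for each gene, so the counted tags may differ from those predicted. They were read from the GENCODE M21 transcripts of GRCm38, which matched all 20 genes, as the last CATG followed by a full tag, with the CATG site in capitals.
*E130008D07Rik*: CATGtctaagcacagggcaaaactatg
*E130008D07Rik*, another isoform: CATGtgagcttctaggggacatttcac
*Aars2*: CATGtggtacacaataatacaataatt
*Slc25a27*: CATGcaaacacaactattgaaaaaaaa
*Slc35b2*: CATGcagttcccctaggggccagtgag
*Enpp4*: CATGtaaatatagtgagtgtgctataa
*Enpp5*: CATGatttgcattattaatcatattaa

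All 5 coding genes had their tag in the last exon, in the 3′ UTR, that of *Aars2* being exon 22 (chr17:45520810-45520836). The tags of *E130008D07Rik* lay in the last exons of noncoding transcripts, the first at chr17:43149460-43149486. For *Slc25a27* (chr17:43641892-43641918) the last 8 of the 27 bases lay past the end of the gene in the deposited table, so the site at which its tags were counted may be another one. A single tag was predicted for 18 of the 20 genes, and *E130008D07Rik* and *Runx2* had more than 1. Only the tag of *Cdc5l* was also predicted for other genes, 2 in number, so its counts are uncertain. The CAST form of the sites was not analysed here, and a CAST variant inside a tag or its CATG site was not tested as a part of any difference below.

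The deposited values are tag hits divided by the size factor of the library, called normalized counts here. Tag hits totalled 7754202 to 13082873 per mouse, and 3 hits, the floor of detection used here, were worth 2.36 to 3.81 normalized counts. This floor covers counting error only, whereas the 95% intervals of fold changes given below come from limma and reflect the spread between mice. All 8 hypothalamic neuropeptide markers sought were in the table and none was called between genotypes. Their sums nevertheless spread from 10345.5 up to 28038 normalized counts for *b6/b6*, and from 5418 up to 31440 for *cast/cast*. Of 4 thalamus markers 1 was called lower. Blood marker sums (3 of 5 markers present) peaked at 4999 for *b6/b6* but 782 for *cast/cast*. Those of pituitary (2 of 5 present) peaked at 470 and 265. How far tissue composition enters any result was not tested. Libraries *b6/b6* 6 and 12 and *cast/cast* 4 and 6 stood apart, with a median correlation with the other libraries of 0.802 to 0.868 against 0.886 to 0.947 for the rest. Summed endothelial markers (*Cldn5*, *Flt1*, *Pecam1*, *Kdr*, *Tek* and *Slco1a4*) reached 1005 and 1080 normalized counts in *b6/b6* 6 and 12, against 273.8 to 528 in the other 10 *b6/b6* and 265 to 595 in the *cast/cast* mice. Study numbers were lower in *cast/cast* (median 120.5) than in *b6/b6* mice (median 269.5). Results are therefore also given within the earlier mice (numbers up to 150, 7 *cast/cast* and 5 *b6/b6*) and the later mice (5 *cast/cast* and 7 *b6/b6*). Reading the study number as an order in time is an assumption, and the split at 150 was set here and is not a labelled batch.

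A gene was called where limma gave an unadjusted *P* of at most 0.01 and the mean normalized counts differed at least 1.5-fold. Of the 20 genes 5 were called, 25%, against 1.49% of all genes. *E130008D07Rik*, *Aars2*, *Slc25a27* and *Slc35b2* were lower in *cast/cast* mice (1.01% of all genes were called lower), and *Enpp4* was higher (0.471% of all genes). The log2 fold change was negative for 15 of the 20 (75%), against 52.7% of all genes, with a median of -0.30 against -0.02. In the stretch of the CAST segment next to this window 54.0% of genes were negative, with a median of -0.05. In the most proximal stretch 55.7% were negative, with a median of -0.10. In 2 of the 20 genes, *E130008D07Rik* and *Aars2*, the groups did not overlap, as in 0.336% of all genes. In the stretch next to this window this held for 22 of 211 genes, and in the most proximal stretch for 17 of 174. *E130008D07Rik* and *Aars2* were also the only ones of the 20 with a Benjamini-Hochberg adjusted limma *P* of at most 0.05 (0.572% of all genes also passed the 1.5-fold limit at that *P*). In the 2 other stretches 41 and 25 genes had such an adjusted *P*. edgeR and DESeq2, run on the recovered tag hits, called 5 of the 20 each, where they called 2.79% and 2.82% of all genes. Within the earlier mice 3 of the 20 were called (3.27% of all genes) and within the later mice also 3 (1.1%). Without the 4 libraries that stood apart 5 were called (1.37% of all genes), and with 2 principal components as covariates 4 were (1.16%). *E130008D07Rik* and *Aars2* were called in all of these runs, but the other calls did not all hold. The earlier mice added *Slc25a27* and the later mice *Enpp5*. Without the 4 libraries *Enpp5* and *Tmem151b* took the place of *Enpp4* and *Slc35b2*. With the 2 principal components *Slc35b2* was lost.

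**Figure D1:**
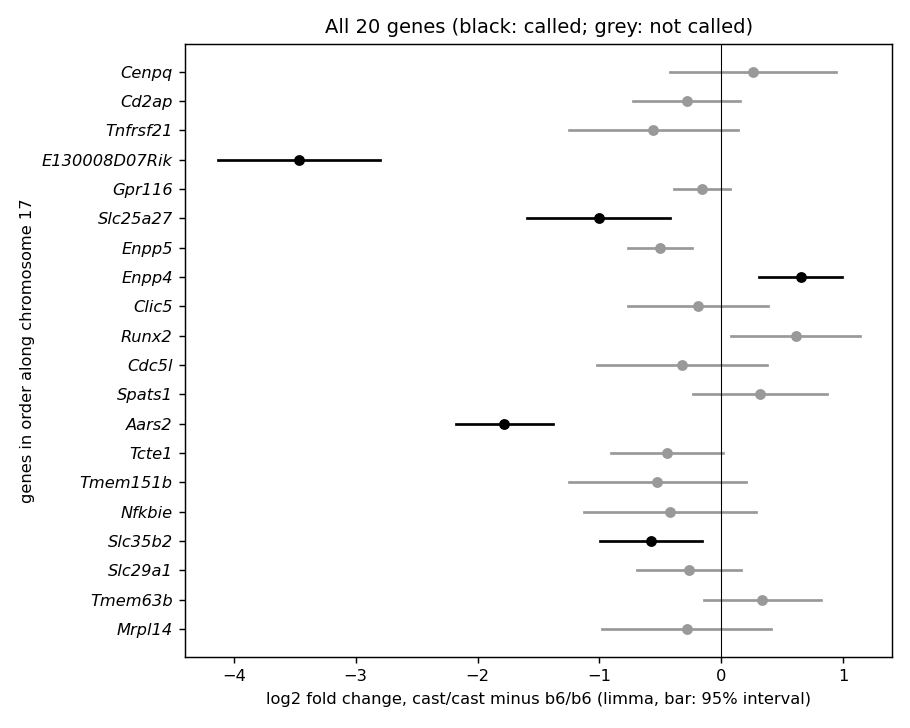
Log2 fold change of each of the 20 genes (horizontal axis, *cast/cast* minus *b6/b6*, from limma on log2(normalized count + 1)), in order along Chr 17 from top to bottom. Points are estimates, bars are 95% intervals, and black marks the 5 called genes, of which *Enpp4* alone lies to the right of 0 and *E130008D07Rik* lies farthest to the left at -3.47.

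Of the 20 genes the largest difference was in *E130008D07Rik*, an RNA without a known protein product (chr17:43146041-43158291, GRCm38, minus strand). In *b6/b6* mice it had 14.1 normalized counts in the lowest, 36.1 in the median and 55.3 in the highest mouse, and in *cast/cast* mice 0, 1.95 and 8.89. Every *cast/cast* mouse lay below every *b6/b6* mouse, and 9 of the 12 *cast/cast* mice had no more than 3 tag hits. The means were 34.4 ± 13.1 (SD, n = 12) and 2.59 ± 2.40 (n = 12), a ratio of 13.3. The difference was -3.47 on the log2 scale with a standard error (SE) of 0.32 (limma *P* = 3.1e-11, adjusted *P* = 1.5e-08). Because the *cast/cast* values were near the floor, the size depended on the pseudocount, from -2.35 with 5 to -3.80 with 0.5. The earlier and the later mice gave almost the same value, -3.43 and -3.52.

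Among the genes of mitochondria and translation, *Aars2* and *Slc25a27* were called lower in *cast/cast* mice and *Mrpl14*, a protein of the large mitochondrial ribosomal subunit, was not. *Aars2* (chr17:45506841-45520843, plus strand) encodes the mitochondrial alanyl-tRNA synthetase, which loads alanine onto its tRNA for translation inside mitochondria. Its normalized counts were 109.3, 187.3 and 345 in the lowest, median and highest *b6/b6* mouse, and 26.5, 52.4 and 91.6 in the *cast/cast* mice. All 12 *cast/cast* mice were below all 12 *b6/b6* mice. The means, 189.2 ± 63.7 and 54.4 ± 17.7, differed 3.48-fold (log2 fold change -1.78, SE 0.19, limma *P* = 7.8e-10, adjusted *P* = 3.0e-07).

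*Aars2* was called under every alternative run that keeps it among the genes, and its groups stayed apart within the earlier mice, with 40.3 to 91.6 in *cast/cast* and 109.3 to 196.1 in *b6/b6*, and within the later mice, with 26.5 to 58.3 and 128.9 to 345. The log2 fold change was -1.32 (SE 0.26) in the earlier and -2.23 (SE 0.25) in the later mice. This difference did not pass the adjustment over all genes (limma interaction *P* = 0.0194, adjusted *P* = 0.342).

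*Slc25a27* (chr17:43641900-43667015, minus strand) encodes uncoupling protein 4, a carrier of the inner mitochondrial membrane found mainly in brain. The lowest, median and highest *b6/b6* mice had 25.3, 40.0 and 155.5 normalized counts, and the *cast/cast* mice 11.4, 25.7 and 55.5. The groups overlapped, though 6 *cast/cast* mice were lower than every *b6/b6* mouse and 11 were lower than the *b6/b6* median. The means were 58.0 ± 42.8 and 26.3 ± 12.5 (log2 fold change -1.01, SE 0.29, limma *P* = 0.00164, adjusted *P* = 0.201).

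Both of the highest *Slc25a27* values belonged to libraries that stood apart, *b6/b6* 6 with 139.2 and *b6/b6* 12 with 155.5, while the other 10 *b6/b6* mice had 25.3 to 58.2. These are the libraries with the high endothelial marker sums, and the part of that in the result was not tested. Without both, the call held with a ratio of 1.53 and a log2 fold change of -0.69 (SE 0.23, limma *P* = 0.00591). In the later mice alone it did not (-0.57, SE 0.33, limma *P* = 0.102). There the 7 *b6/b6* mice had a mean of 40.4 ± 10.9 and the 5 *cast/cast* mice 29.4 ± 16.3. *Mrpl14* had 38.9 ± 22.1 and 32.5 ± 19.6 normalized counts (limma *P* = 0.413).

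The neighbouring genes *Enpp5* (chr17:44078846-44086561, plus strand) and *Enpp4* (chr17:44096310-44105808, minus strand) point towards each other and encode ectonucleotide pyrophosphatase/phosphodiesterases, membrane enzymes that cleave nucleotides and related molecules outside the cell. *Enpp4* was the only one of the 20 called higher in *cast/cast* mice. Its normalized counts ran from 220 through a median of 327 to 400.2 in *b6/b6*, and from 308 through 494 to 1106 in *cast/cast* mice. Although the groups overlapped, 10 of 12 *cast/cast* mice lay above all *b6/b6* mice. The means were 323 ± 53.3 and 534 ± 215.5, a ratio of 1.65 (log2 fold change 0.65, SE 0.17, limma *P* = 0.00052, adjusted *P* = 0.0837).

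The highest *Enpp4* values were in *cast/cast* 6 (1106) and *cast/cast* 4 (709.9), both libraries that stood apart, and the other 10 *cast/cast* mice had 308 to 648. Without these 2 libraries the ratio was 1.42, under the 1.5-fold limit, so that the call was lost while *P* was 0.0015 (limma, log2 fold change 0.49, SE 0.14). In the earlier mice the log2 fold change was 0.71 (limma *P* = 0.0257) and in the later mice 0.55 (limma *P* = 0.01005), so it was called in neither.

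*Enpp5* showed the opposite direction. Its normalized counts were 666, 1020 and 1544 in the lowest, median and highest *b6/b6* mouse, and 544, 706 and 875 in the *cast/cast* mice. All 12 *cast/cast* mice lay below the *b6/b6* median and 5 lay below every *b6/b6* mouse, yet the ranges overlapped. With means of 994 ± 234 and 695 ± 112.6, the ratio of 1.43 did not reach 1.5, and *Enpp5* was not called (log2 fold change -0.50, SE 0.13, limma *P* = 0.000598, adjusted *P* = 0.0941). It was called in the later mice (ratio 1.62, limma *P* = 0.0041), without the 4 libraries that stood apart (ratio 1.52, limma *P* = 0.00025) and after scaling all libraries to an equal total (ratio 1.53, limma *P* = 3.3e-05).

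Of the other members of the family sought, *Enpp1*, *Enpp2* and *Enpp6*, which lie elsewhere in the genome, were in the table and none was called, with log2 fold changes of -0.18 (SE 0.37), -0.21 (0.22) and 0.18 (0.34).

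**Figure D2:**
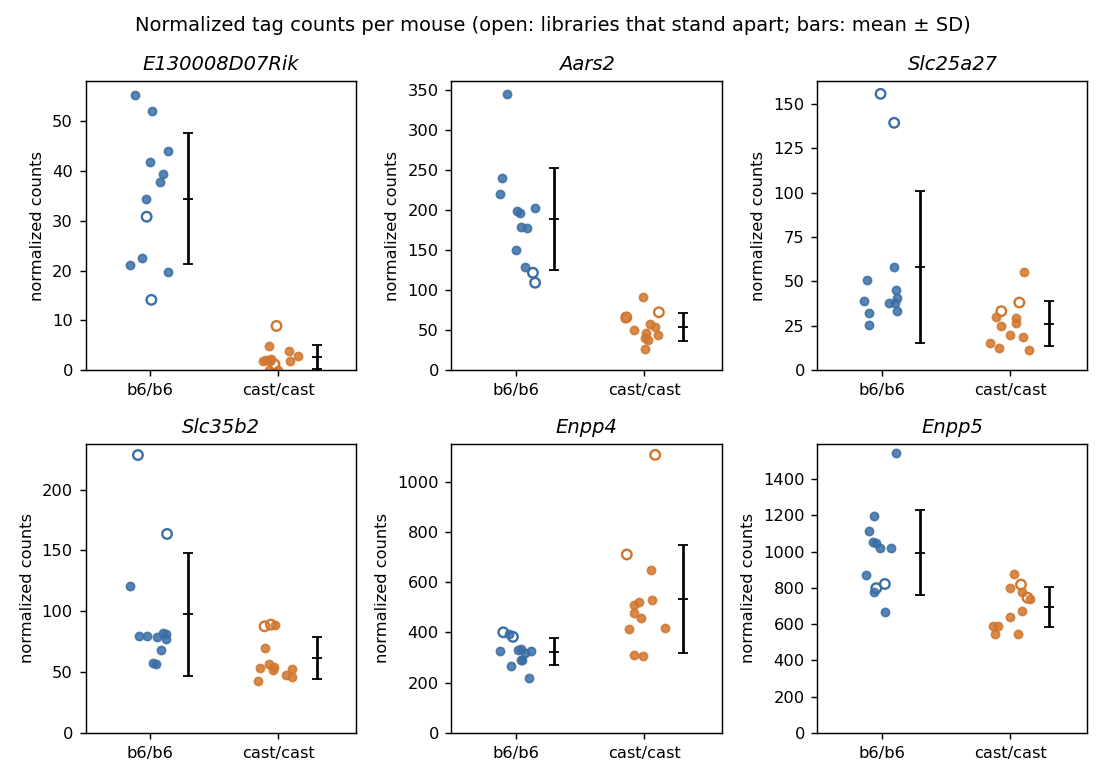
Normalized counts (vertical axes, from 0) of 6 genes in each of 12 *b6/b6* and 12 *cast/cast* mice. Points are mice, open points are the 4 libraries that stood apart, and bars show mean ± SD. The groups are separate for *E130008D07Rik* and *Aars2*, the open *b6/b6* points top *Slc25a27* and *Slc35b2*, and the open *cast/cast* points top *Enpp4*.

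*Slc35b2* (chr17:45564152-45567669, plus strand) encodes the carrier that brings the sulfate donor PAPS into the Golgi. The lowest, median and highest *b6/b6* mice had 56.9, 79.6 and 228 normalized counts, and the *cast/cast* mice 42.4, 53.6 and 89.0. The groups overlapped, with 8 *cast/cast* mice below all *b6/b6* mice and 3 *b6/b6* mice above all *cast/cast* mice. Means were 97.7 ± 50.5 and 61.6 ± 17.5 (ratio 1.59, log2 fold change -0.58, SE 0.21, limma *P* = 0.00929, adjusted *P* = 0.482).

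The highest values were in *b6/b6* 12 and *b6/b6* 6, with 228 and 163.5 normalized counts against 56.9 to 120.4 in the other 10. Without both the call was lost, with a ratio of 1.27 and a log2 fold change of -0.35 (SE 0.16, limma *P* = 0.0368). Without all 4 libraries that stood apart the ratio was 1.39, under the 1.5-fold limit (-0.47, SE 0.15, limma *P* = 0.0056). It was called without the 2 *cast/cast* libraries (ratio 1.74, limma *P* = 0.0030), but not with 2 principal components as covariates (-0.27, SE 0.14, limma *P* = 0.0562). The call was also absent in the earlier mice (-0.82, SE 0.36, limma *P* = 0.0369) and in the later mice (-0.38, SE 0.22, limma *P* = 0.102). As for *Slc25a27*, the part of the endothelial marker sums in this was not tested.

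*Tmem63b*, an ion channel gated by mechanical or osmotic stress, had the highest level of the 20 genes and more counts than 98.2% of all genes. The lowest, median and highest *b6/b6* mice had 2051, 5340.5 and 8786 normalized counts, and the *cast/cast* mice 4277, 5356 and 12156. The medians were close and the groups overlapped (log2 fold change 0.34, SE 0.23, limma *P* = 0.159). Both extremes were libraries that stood apart, with 2051 and 2272 in *b6/b6* 12 and 6 and 9766 and 12156 in *cast/cast* 4 and 6, and without these 4 the log2 fold change was -0.06 (SE 0.18). It was 0.88 (SE 0.32, ratio 1.87, limma *P* = 0.0159) in the earlier and -0.03 (SE 0.23) in the later mice, a difference that did not pass the adjustment over all genes (limma interaction *P* = 0.0336, adjusted *P* = 0.355).

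*Tmem151b*, a membrane protein without a well known role, had 308, 786 and 1478 normalized counts in the lowest, median and highest *b6/b6* mouse and 188.8, 490.4 and 1977 in the *cast/cast* mice. The highest and the lowest value of all were both in the *cast/cast* group, and the difference was not called (-0.52 on the log2 scale, SE 0.35, limma *P* = 0.15). *cast/cast* 4 had the 1977 counts and *b6/b6* 6 and 12 the 308 and 325, and without the 4 libraries that stood apart *Tmem151b* was called lower (-1.03, SE 0.32, ratio 1.70, limma *P* = 0.0035). Its gene (chr17:45541940-45549677, minus strand) overlaps the 3′ end of *Tcte1* (chr17:45523434-45542677, plus strand). The predicted tags of this pair differed in sequence and lay at different sites, both within the overlap. The sources used here do not say whether strand was used in counting, so it is not known whether the counts of the pair were kept apart. *Slc29a1*, the equilibrative nucleoside transporter 1 that also carries adenosine, had 818 ± 332 and 665 ± 218 normalized counts (limma *P* = 0.218).

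*Runx2*, the transcription factor best known for bone formation, had an unadjusted *P* under 0.05 without a call. The lowest, median and highest *b6/b6* mice had 18.5, 67.8 and 119.1 normalized counts, and the *cast/cast* mice 49.6, 83.2 and 142.0. The ranges overlapped widely, with 3 *cast/cast* mice above all *b6/b6* mice and 5 *b6/b6* mice below all *cast/cast* mice (log2 fold change 0.61, SE 0.26, limma *P* = 0.0251, adjusted *P* = 0.586). The lowest *b6/b6* values, 18.5 and 29.9, were those of *b6/b6* 12 and 6, and without them the log2 fold change was 0.37 (SE 0.22, limma *P* = 0.109). In all, 7 of the 20 genes had an unadjusted limma *P* of at most 0.05, against 8.13% of all genes.

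Another 9 genes were not called, with log2 fold changes from -0.56 to 0.32 and the lowest limma *P* at 0.0562. They include the receptors *Tnfrsf21* (death receptor 6, log2 fold change -0.56, SE 0.34) and *Gpr116* (an adhesion G protein-coupled receptor, -0.16, SE 0.11), and the cytoskeletal genes *Cd2ap* (an adaptor protein, -0.28, SE 0.22) and *Clic5* (-0.19, SE 0.28). The interval for *Gpr116* ran from -0.39 to 0.07, the narrowest of these, whereas that for *Tnfrsf21* ran from -1.25 to 0.14, the latter taking in both a halving and no change. In *Tnfrsf21* the libraries *b6/b6* 6 and 12 had 385 and 480 normalized counts against 55.4 to 260.2 in the other 10 *b6/b6* mice. Its log2 fold change was -0.07 (SE 0.30) without the 4 libraries that stood apart, -1.11 (SE 0.45, limma *P* = 0.0268) in the earlier mice and -0.22 (SE 0.40, limma *P* = 0.586) in the later mice. *Cd2ap* gave opposite signs in the 2 parts of the study, 0.24 (SE 0.27) in the earlier and -0.68 (SE 0.26) in the later mice, but the interaction did not pass adjustment (limma *P* = 0.0231, adjusted *P* = 0.342). *Aars2*, *Tmem63b* and *Cd2ap* were the only 3 genes described here with an unadjusted interaction *P* (limma) under 0.05. Such a *P* was common among all genes, being found in 1885 of 13998, and none of them passed the adjustment.

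Nuclear and germ cell genes of the window mostly had low tag counts, *Runx2* above being an exception. *Cdc5l*, a splicing factor, *Nfkbie*, an inhibitor of NF-kappa-B, *Cenpq*, a centromere protein, and *Spats1*, a gene of spermatogenesis, had means of 5.83 to 16.3 normalized counts in each genotype. Their log2 fold changes were -0.32, -0.42, 0.26 and 0.32 with standard errors of 0.34, 0.35, 0.33 and 0.27. None was called (limma *P* = 0.353, 0.237, 0.438 and 0.247). No more than 3 tag hits were found in 4 *cast/cast* mice for *Nfkbie*, 3 for *Cdc5l* and 2 for *Cenpq*. *Tcte1*, of the sperm flagellum, had higher counts, at 164.2 ± 48.1 in the *b6/b6* group against 125.7 ± 43.7 in the *cast/cast* group (-0.45 on the log2 scale, SE 0.22, limma *P* = 0.0562).

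**Figure D3:**
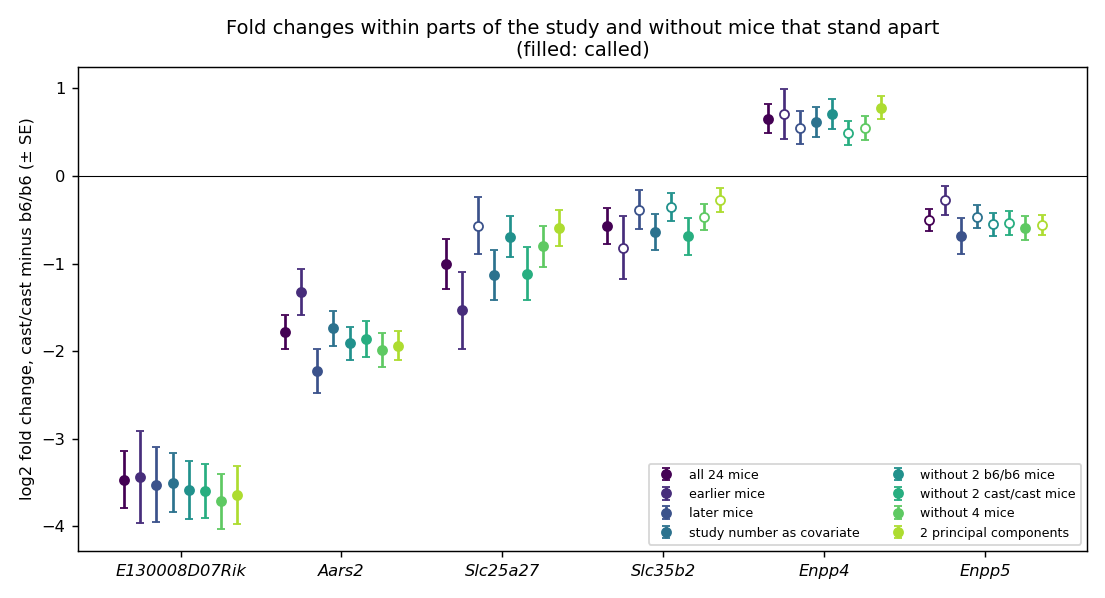
Log2 fold change (vertical axis, *cast/cast* minus *b6/b6*, ± standard error) of 6 genes in all 24 mice, in the earlier and later mice, with study number or 2 principal components as covariates, and without libraries that stood apart. Filled points are called. *E130008D07Rik* and *Aars2* are called in all 8 settings, and *Slc35b2* is open in 5.

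Along the chromosome, the genes were spread unevenly. No tested gene of the window lay in its first 3.62 Mb, *Cenpq* being the first at 40923055, and 10 of the 20 lay distal to the interval to which the study narrowed its loci for intake. Of these 10, *Aars2* and *Slc35b2* were called. The call nearest to the end of the segment was *Slc35b2*, whose start lay 165.8 kb from the limit, and the 3 genes after it, *Slc29a1*, *Tmem63b* and *Mrpl14*, were not called. The gene start nearest to the limit was that of *Mrpl14*, at 43.6 kb. The limit is the position of the marker that the study gives as the distal boundary of the segment, on GRCm38 like the genes.

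Beyond the segment both groups carry B6 alleles according to the study. Of 222 genes beyond the limit none was called by limma or DESeq2, 4 were called by edgeR, and 13 had an unadjusted limma *P* of at most 0.05. The 57 genes within the same 8.43 Mb beyond it had log2 fold changes from -0.64 to 0.55. In the remainder of the CAST segment 26.1% of the 211 genes in the stretch next to this window and 23% of the 174 genes in the most proximal stretch were called, near the 25% found here. On other chromosomes 0.688% of 12644 genes were called.

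**Figure D4:**
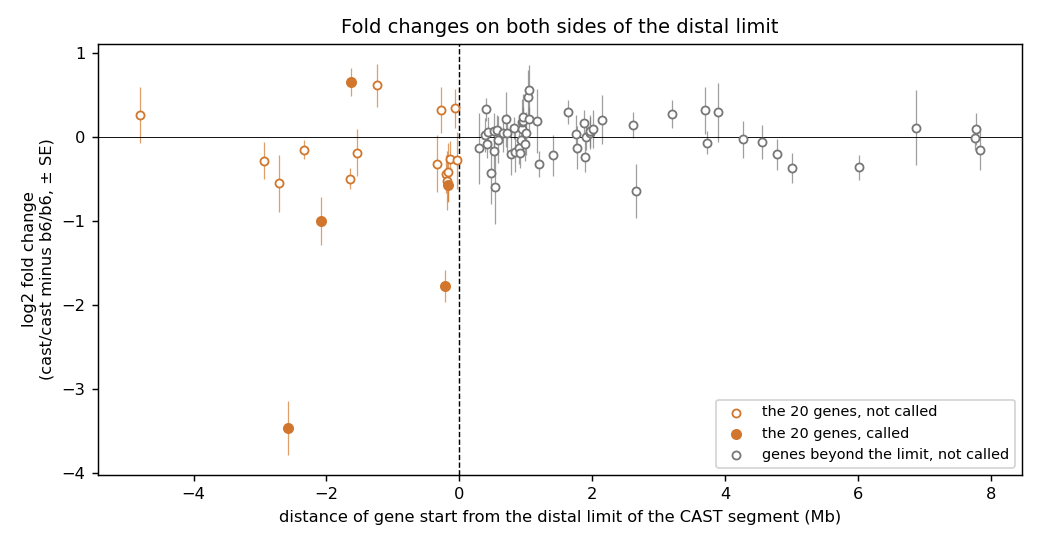
Log2 fold change of each gene (vertical axis, *cast/cast* minus *b6/b6*, ± standard error) against the distance of its start from the distal limit of the segment in Mb (horizontal axis, negative inside the segment). Orange points are the 20 genes and grey points the 57 genes beyond the limit, filled where called. All 5 filled points lie inside the segment.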

How the data were processed

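The signal values are, as deposited, normalized counts of SAGE-Seq tags. The authors mapped reads against RefSeq mRNA and GRCm38/mm10 (modified SOLiD SAGE Analysis Software 1.10), counted hits by gene and scaled each library by its DESeq size factor. The authors' own comparison columns (fold changes, *P*-values) were not used. The 19529 rows held 13998 genes, each used 1 time. All values were whole multiples of 1 step per library (100% within 0.01), which gave tag hits. Among 276 pairs of libraries none was close to identical (lowest chi-square per degree of freedom 14.7).

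Genes with a mean of at least 5 normalized counts were tested, *cast/cast* against *b6/b6*, with limma 3.58.1 (lmFit, eBayes with trend) on log2(normalized count + 1), which understates the change of low genes, and adjusted by Benjamini-Hochberg over all genes. The lowest mean of any deposited gene was 6.03, so this minimum removed no gene. Samples were grouped by genotype as labelled. Alternatives were another pseudocount (0.5 or 5), a minimum mean of 20, rescaled totals, edgeR 4.0.16 (quasi-likelihood), DESeq2 1.42.0, study number as covariate, earlier or later mice only, other thresholds and a nearer distal limit. Leaving out libraries that stood apart (median correlation under 0.87) and 2 principal components as covariates were chosen after seeing the data. Count tools and covariate fits used the ratio of the deposited means. The scripts were tested on simulated data. Python 3.11.15 and R 4.3.3 were used.

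Genes described in full were those called by any tool, those with an unadjusted limma *P* of at most 0.05 and the 3 with the highest mean. The genes and lists were chosen with earlier results of these data known.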

Additional observations from a re-analysis of the deposited data

How the results depend on the processing

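Of the 5 calls, *E130008D07Rik* and *Aars2* passed an adjusted limma *P* of 0.05 or 0.01, leaving 2 calls, 2 lower and 0 higher. At 0.05 edgeR also kept *Enpp4* (adjusted *P* = 0.0374), and DESeq2 kept *Enpp4* (adjusted *P* = 0.00625) and *Slc25a27* (adjusted *P* = 0.0338). *Enpp5*, whose ratio of 1.43 kept it from a call, had an adjusted *P* of 0.0094 in DESeq2 and 0.0596 in edgeR. With 2 principal components the adjusted limma *P* was 0.00094 for *Enpp4* and 0.0094 for *Enpp5*. The earlier and the later mice alone gave 3 calls each, with 0 higher in either, and 0 genes were called higher without the 2 *cast/cast* or all 4 libraries that stood apart. With the nearer distal limit 3 genes were called, 2 of them lower. Over single genes and alternatives, 232 values kept direction and side of the threshold, 10 lost a call, 4 gained one and 8 changed sign, none of these 8 in a called gene. The sign changes were *Cd2ap* in the earlier mice (0.24), *Gpr116* (0.0468), *Cdc5l* (0.0927) and *Tmem63b* (-0.0290) in the later mice, *Cdc5l* (0.16), *Tmem63b* (-0.0610) and *Mrpl14* (0.19) without the 4 libraries, and *Clic5* with 2 principal components (0.0887). The smaller sets hold fewer mice, and otherwise the cause was not tested. No paired analysis was possible because the labels give no replicate numbers that tie mice of the 2 genotypes together. The deposited table held no gene with a mean under 6.03 normalized counts, so such genes could not be analysed here.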
